A study of Mus musculus with 18 samples.

Results

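Peptide hormones are made as longer precursors, folded in the endoplasmic reticulum, and then cut and trimmed inside secretory granules. The genes described here are 10 parts of that machinery and its cargo in mouse islets: the convertases Pcsk1 and Pcsk2, the convertase-binding protein Scg5, the carboxypeptidase Cpe, the granins Chga, Chgb, Scg2 and Scg3, the cargo hormone Iapp, and Ero1b, an oxidase that serves disulfide formation. They were chosen by name, and 9 of the 10 were found among the 10509 genes of the deposited table. Expression of Chgb was not analysed here.

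Islets were collected after 12 weeks of high-fat diet from 10 mice in which NRK1 was removed with Ins1Cre (genotype NRK1_BKO) and from 8 WT mice, with 1 library per mouse. NRK1 is a kinase that feeds nicotinamide riboside into NAD synthesis, and the comparison asks what its loss from beta cells does to islet transcripts. The Cre is driven from the Ins1 gene, so deletion is directed to beta cells, while the RNA came from whole islets, which also hold alpha, delta and other cells. Titles of both groups begin with Ins1Cre, and the labels do not say whether WT mice carried it. Age, sex and the deleted part of the gene are not in the labels either. The libraries are named here by genotype and number, KO 1 to 10 and WT 1 to 8.

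In beta cells, PC1/3, the product of Pcsk1, and PC2, the product of Pcsk2, cut proinsulin at its paired basic residues. Carboxypeptidase E, from Cpe, then removes the basic residues left at the new ends. PC2 needs 7B2, the product of Scg5, to mature, and pro-islet amyloid polypeptide, from Iapp, is cut by the same convertases and stored beside insulin. Granins are acidic proteins that condense with cargo as granules form, and Scg3 binds Chga at granule membranes. In proinsulin folding, the beta-cell oxidase Ero1b passes disulfide bonds to protein disulfide isomerases.

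Transcription of several granin and convertase genes is known to answer to cyclic AMP through a short palindrome near the gene start, the cyclic AMP response element. For that reason the promoters of the listed genes were searched for it. RefSeq promoter windows (build GRCm38.p6, the 250 bases before the start) were at hand for 9 of the 10 genes, the exception being Cpe. The palindrome TGACGTCA, which reads the same on both strands, was present in those of Pcsk1, Scg2 and Chgb and in 1.55% of all 32851 windows. The variant TGACGTAA, searched on both strands (TTACGTCA on the other), was present in that of Chga and in 0.447% of all windows. These stretches of 30 bases, written 5′ to 3′ along the gene's strand with the match in capitals, show the 4 windows that hold one.
Pcsk1: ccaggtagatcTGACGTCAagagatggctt
Scg2: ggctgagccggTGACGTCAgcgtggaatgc
Chga: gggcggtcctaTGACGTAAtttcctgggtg
Chgb: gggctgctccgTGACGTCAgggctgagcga
They lie at chr13:75089768-75089797 (plus strand), chr1:79440076-79440105 (minus strand), chr12:102554886-102554915 (plus strand) and chr2:132781559-132781588 (plus strand). Counted from the start that defines the window, the first base of the match was at -78 in Pcsk1, -68 in Scg2, -44 in Chga and -72 in Chgb. That start is not always the outermost of the gene. The windows of Pcsk1 and Scg3 lie inside the RefSeq gene span, which begins at 75089420 for Pcsk1, and the window of Ero1b overlaps its span. For Chga and Pcsk2, the bases just after the start were not found in a GENCODE transcript of the gene. The Scg2 and Chgb stretches overlap an exon of some GENCODE transcript. In the windows of Pcsk2, Scg3, Scg5, Iapp and Ero1b neither string of letters was found. The shorter string TGACG, which both contain, was also searched on both strands. It was found in the windows of Pcsk2, Scg3 and Scg5, besides the 4 shown, and in 17.8% of all windows. The box TATAA, searched on both strands, was found in those of Scg2 and Iapp, at -27 in both, and in 22.8% of all windows. A match of letters is a description of sequence and does not show that a factor binds there.

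Over the listed genes the libraries held 2831137 to 4303680 reads, and 33 to 346 of the genes had no read, most in WT 7, KO 2 and KO 3. Of 10 beta-cell markers 9 were listed, but so were 15 of 20 acinar and 7 of 7 endothelial markers. Being listed therefore does not tell the tissue. Ins2 took 44.6% ± 5.56 (SD, n = 10) of knockout reads and 38.7% ± 3.78 (SD, n = 8) of WT reads (exact permutation test, two-sided, p = 0.0177). Nmrk1, the targeted gene, stood at 1.99 ± 0.49 (log2 CPM, SD, n = 10) in knockout islets against 2.01 ± 0.92 (SD, n = 8) in WT, from 3 to 36 reads per library. Reads from the 3′ end check nothing if the deletion lies elsewhere in the gene. Acinar marker reads, from exocrine tissue carried along with islets, summed to 199 to 9667 per knockout library and 182 to 8119 per WT library.

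The listed genes include some of the most abundant transcripts of the islet. Levels are log2 of CPM, the reads of a gene scaled per library as deposited, plus a small floor. That scaling did not follow the reads over listed genes alone. In KO 3, with 3292303 such reads, 1 read counted 0.3905 CPM, and in KO 6, with 3295299, it counted 0.2655 CPM. The kit makes about 1 read per transcript end, so levels were compared between genes without dividing by length. Over all 18 libraries Iapp averaged 14.28 ± 0.34 (SD, n = 18) and ranked 3 among all genes, and Chga averaged 12.83 ± 0.23 (SD, n = 18) and ranked 4. Scg2 at 11.55 ± 0.42, Cpe at 11.42 ± 0.21, Pcsk2 at 11.09 ± 0.19 and Scg3 at 10.55 ± 0.18 (log2 CPM, SD, n = 18) ranked 6, 7, 10 and 16. The cofactor and the rarer enzymes stood well below. Scg5 averaged 8.61 ± 0.43 and ranked 125, Pcsk1 averaged 7.05 ± 0.48 and ranked 706, and Ero1b averaged 6.20 ± 0.40 and ranked 1478 (log2 CPM, SD, n = 18). Within a library Pcsk2 exceeded Scg5, its product's binding protein, and Scg5 exceeded Pcsk1 by 1.56 ± 0.27 on the log2 scale (SD, n = 18), in 18 of 18 libraries. Neighbours in this order were separated by more than 1 SD of their difference within a library, except Scg2 and Cpe, which differed by 0.13 ± 0.41 and kept their order in 10 of 18. Together the 9 genes took 3.80% ± 0.54 (SD, n = 10) of all reads in knockout islets against 4.04% ± 0.32 (SD, n = 8) in WT (exact permutation test, two-sided, p = 0.280).

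**Figure D1:**
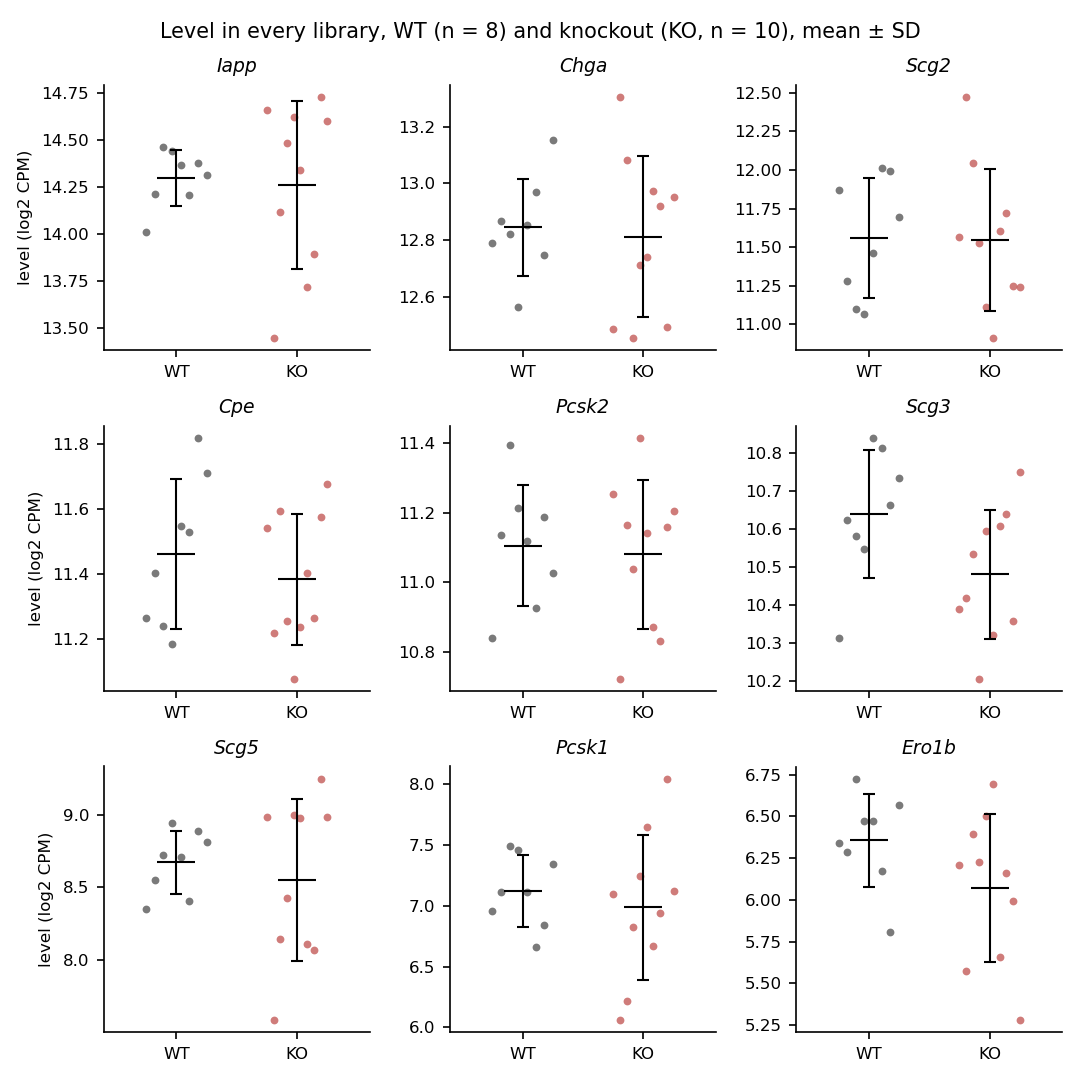
Level of each of the 9 genes (log2 CPM, vertical axis, own scale per panel) in every WT and knockout library. Points are libraries, and bars are the mean and SD. The groups overlap in every panel, and the knockout points of Iapp, Scg5 and Pcsk1 are spread most widely relative to WT.

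No level passed the test between genotypes. Limma, a linear model fitted over all 10509 genes, called 0 of the 9 genes at an adjusted p under 0.05, against 0% of all genes, and its adjusted p-values for the 9 ran from 0.945 to 0.996. At an unadjusted p under 0.05 it had 0 of the 9 lower in the knockout, against 2.22% of all genes. The 9 differences were all below 0, from -0.29 to -0.01 with a median of -0.08 on the log2 scale, beside a median of -0.00 over all genes. That sign did not hold in other settings: quantile normalization put Cpe, Scg2 and Chga above 0, and leaving out KO 2, KO 3 and WT 7 put Pcsk1, Pcsk2, Scg5 and Iapp above 0. In bulk islets, fewer cells of a type and less RNA per cell cannot be told apart.

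Among the convertases, Pcsk1 levels in knockout libraries had a lowest, median and highest log2 CPM of 6.06, 7.02 and 8.05, and WT libraries had 6.66, 7.11 and 7.49. The knockout group covered the whole WT range and went past it at both ends, with KO 2 lowest and KO 9 highest. Its difference was -0.14 (95% interval -0.55 to 0.27, limma adjusted p = 0.974, exact permutation p = 0.566). Pcsk2 was tighter, at 10.72, 11.15 and 11.42 in the knockout and 10.84, 11.13 and 11.40 in WT. Its difference was -0.03 (95% interval -0.30 to 0.25, limma adjusted p = 0.990, exact permutation p = 0.787). Scg5 ran over 7.58, 8.70 and 9.25 in the knockout and 8.35, 8.72 and 8.95 in WT, so that 4 knockout libraries lay below all WT libraries and 5 lay above them. The mean difference, -0.12 (95% interval -0.50 to 0.26, limma adjusted p = 0.975, exact permutation p = 0.579), hides that split.

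Ratios between these genes within a library do not depend on how the library was scaled. The log2 ratio of Pcsk1 to Pcsk2, the pair of convertases, was -4.09 ± 0.52 (SD, n = 10) in knockout islets against -3.98 ± 0.23 (SD, n = 8) in WT, a difference of -0.11 (exact permutation p = 0.588). That of Scg5 to Pcsk2 was -2.53 ± 0.40 (SD, n = 10) and -2.43 ± 0.16 (SD, n = 8), a difference of -0.09 (exact permutation p = 0.540). Neither differed beyond the spread between mice. Both differences turned positive without KO 2, KO 3 and WT 7, at 0.01 and 0.06.

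Cpe, the trimming enzyme, had 11.08, 11.33 and 11.68 as the lowest, median and highest log2 CPM in the knockout and 11.18, 11.47 and 11.82 in WT. The groups overlapped nearly fully, with a difference of -0.08 (95% interval -0.37 to 0.21, limma adjusted p = 0.975, exact permutation p = 0.449).

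Of the granins, Chga ran over 12.45, 12.83 and 13.31 in the knockout and 12.56, 12.84 and 13.15 in WT. Scg2, the precursor of secretoneurin, ran over 10.91, 11.54 and 12.48 in the knockout and 11.06, 11.58 and 12.01 in WT, and its highest library was KO 2. Their differences were -0.03 (95% interval -0.39 to 0.32) and -0.01 (95% interval -0.42 to 0.39), and their values overlapped over most of the range. Scg3 had the smallest exact p of the levels: 10.21, 10.48 and 10.75 in the knockout against 10.31, 10.64 and 10.84 in WT. Its level was under the mean of WT in 8 of 10 knockout mice, with a difference of -0.16 (95% interval -0.41 to 0.09, limma adjusted p = 0.953, exact permutation p = 0.0677).

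Iapp, the cargo peptide, ran over 13.44, 14.41 and 14.73 in the knockout and 14.01, 14.34 and 14.47 in WT. The knockout had the higher median and the lower mean: KO 2, KO 7 and KO 8 lay below all WT libraries while 5 others lay above them. The difference of means was -0.04 (95% interval -0.53 to 0.45, limma adjusted p = 0.992, exact permutation p = 0.818). Ero1b, on the folding side, ran over 5.28, 6.19 and 6.69 in the knockout and 5.81, 6.40 and 6.73 in WT, from 125 to 416 reads per library. It had the largest difference of the 9, -0.29 (95% interval -0.64 to 0.07, limma adjusted p = 0.945, exact permutation p = 0.134), a fold of 0.821.

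The insulin genes had differences of opposite sign. Ins1 was lower in the knockout, at 15.36 ± 0.56 (log2 CPM, SD, n = 10) against 16.04 ± 0.35 (SD, n = 8), with an exact permutation p of 0.00443 and a limma adjusted p of 0.926. Ins2 was at 18.76 ± 0.35 (SD, n = 10) against 18.47 ± 0.27 (SD, n = 8), a difference of 0.28 (exact permutation p = 0.0757). The Ins1Cre allele and the loss of NRK1 cannot be told apart here if WT mice lacked the Cre. The paralogs Ins1 and Ins2 can share reads, so their split is uncertain.

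Relative to Ins2 of the same library, each of the 9 genes had a lower mean in the knockout, by -0.57 to -0.30 on the log2 scale with a median of -0.36. Most other genes had lower ratios too: 84.3% of all genes were lower by this measure, with a median of -0.29. That median is close in size to the Ins2 difference of 0.28, which enters every ratio with the opposite sign. Limma on the ratios called 0 of the 9, against 0% of 10508 genes. At an unadjusted p under 0.05 it had 2 of the 9 lower (Scg3 and Ero1b), against 13.6% of all genes. In none of the other settings fitted did a ratio to Ins2 of these genes turn positive, whereas single runs of animal numbers, given below, were mixed.

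**Figure D2:**
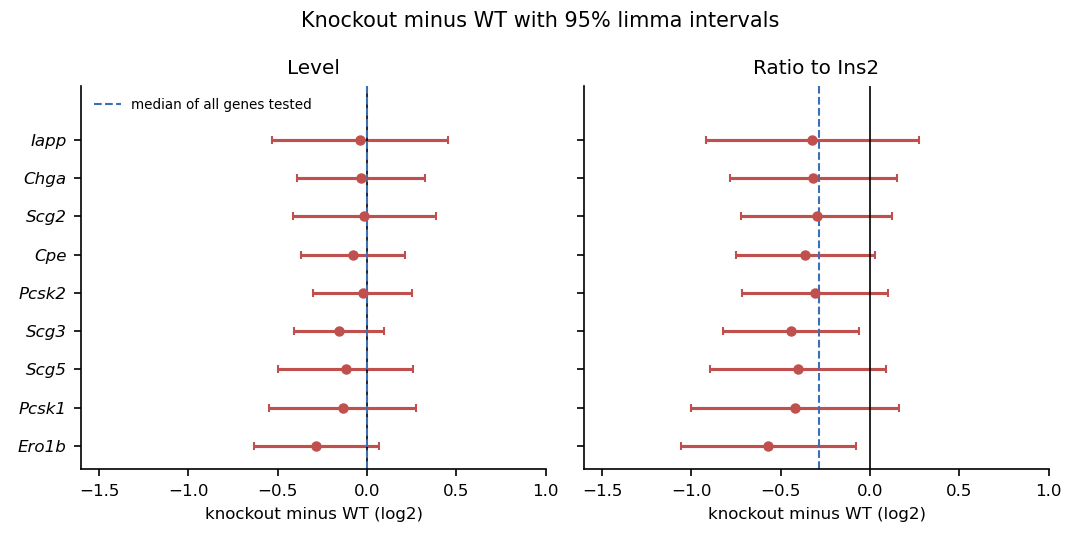
Difference between knockout and WT (log2, horizontal axis) of each gene's level (left) and of its ratio to Ins2 (right). Points are limma estimates and bars 95% intervals. The dashed line is the median of all genes tested, -0.00 for levels and -0.29 for ratios. The points of the right panel lie at or to the left of the dashed line.

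In reads, the ratio has a direct meaning. For each 1000 Ins2 reads, knockout libraries held 4.28, 6.05 and 8.52 Cpe reads as the lowest, median and highest, and WT libraries held 6.77, 7.50 and 9.98. In 7 of 10 knockout libraries the Cpe value was below every WT library, the highest such count among the 9 genes. By level, 1 of 10 was below every WT library. The share of all genes with such a count was not computed, and the ratios of all genes had a median difference of -0.29. The difference of the log2 ratio was -0.36 (95% interval -0.75 to 0.03, limma adjusted p = 0.374, exact permutation p = 0.0130), a fold of 0.778.

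Scg3 stood at 2.05, 3.40 and 4.60 reads per 1000 Ins2 reads in the knockout and 3.03, 4.60 and 5.12 in WT. It was below the mean of WT in 9 of 10 knockout mice and below every WT mouse in 4. The difference of its log2 ratio was -0.44 (95% interval -0.82 to -0.06, limma adjusted p = 0.345, exact permutation p = 0.0103), a fold of 0.736. Ero1b stood at 0.0729, 0.161 and 0.312 in the knockout and 0.104, 0.236 and 0.317 in WT, again under the mean of WT in 9 of 10 knockout mice. Its log2 ratio differed by -0.57 (95% interval -1.06 to -0.08, limma adjusted p = 0.345, exact permutation p = 0.04998), a fold of 0.674. Exact p-values here are two-sided and unadjusted, over 43758 regroupings of the mice, for the 9 levels and the 9 ratios. For ratios they are against a difference of 0, not against the median of -0.29 over all genes.

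For the other 6 genes the ratio differences were smaller than or close to the spread between mice. Iapp had 21.5, 49.1 and 76.1 reads per 1000 Ins2 reads in the knockout and 39.8, 55.1 and 76.1 in WT (log2 difference -0.32, exact permutation p = 0.178). Chga had 11.3, 15.7 and 23.7 against 12.9, 20.8 and 27.2 (log2 difference -0.32, exact permutation p = 0.0661). The granin and the cargo peptide thus overlapped WT at the upper end. Scg2 had 4.62, 6.37 and 10.99 against 6.60, 7.59 and 11.08 (log2 difference -0.30, exact permutation p = 0.0951), with 5 knockout libraries under the lowest WT library. Pcsk2 had 3.18, 4.87 and 6.85 against 4.36, 5.89 and 8.12 (log2 difference -0.31, exact permutation p = 0.0854). The remaining pair, Scg5 and Pcsk1, was the most scattered. Scg5 had 0.369, 0.889 and 1.70 against 0.863, 1.09 and 1.68 (log2 difference -0.40, exact permutation p = 0.173). Pcsk1 had 0.102, 0.283 and 0.737 against 0.214, 0.392 and 0.6003 (log2 difference -0.42, exact permutation p = 0.244).

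**Figure D3:**
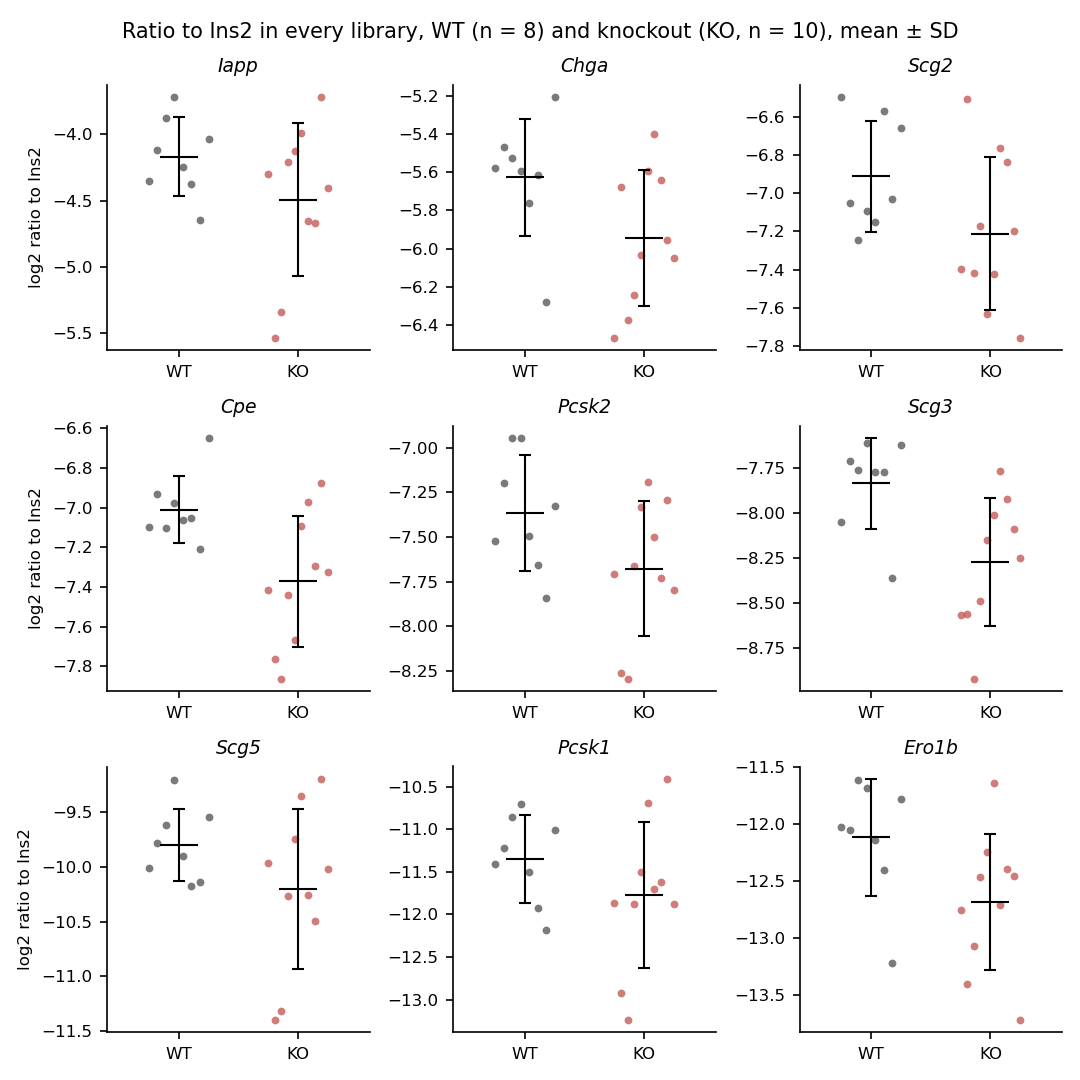
Log2 ratio of each gene to Ins2 within a library (vertical axis, own scale per panel) for every WT and knockout library, with the mean and SD. For Cpe, 7 of 10 knockout points lie under the lowest WT point. For Iapp, Scg5 and Pcsk1, the lowest 2 knockout points are KO 2 and KO 3.

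Marker lists of other cells were compared beside the ratio. Of 9 alpha-cell markers measured, 7 had lower levels in the knockout, with a median of -0.46, limma called 0, and 50.4% of all genes were lower. Their score, the mean log2 CPM of the list, differed by -0.38 (exact permutation p = 0.0940), and their reads summed to 7489 to 35793 per knockout library and 11237 to 47367 per WT library. The delta-cell score differed by -0.34 (exact permutation p = 0.312) and the PP-cell score by -0.10 (exact permutation p = 0.786). The 3 adipocyte markers measured, of fat carried along with islets, had higher levels, with a median of 0.78, and limma called 0. Their reads summed to 94 to 398 per knockout library and 61 to 181 per WT library, and their score differed by 0.70 (exact permutation p = 0.0188), with 5 knockout libraries above all WT libraries. The part of fat in the ratios was not tested. Gcg, the gene of the glucagon precursor that PC2 cuts, had a level difference of -0.74 (SE 0.31, limma adjusted p = 0.925, exact permutation p = 0.0660). Ins2 was lower where the alpha-cell score was higher, with genotype means removed (Pearson r = -0.57, permutation p = 0.014; Spearman rho = -0.56, permutation p = 0.017; r = -0.41 without the 2 farthest libraries). With the alpha-cell score as a covariate, the ratio differences were -0.25 for Scg3 and -0.33 for Ero1b, with unadjusted limma p of 0.149 and 0.174. For Chga the difference was -0.09, for Pcsk2 -0.17 and for Pcsk1 -0.20, so these 5 were smaller by over 1.5 times. The covariate also acts on Ins2, which enters every ratio, and the median over all genes in this setting is not given here. Those of Scg2, Iapp, Cpe and Scg5 were -0.27, -0.27, -0.28 and -0.31, and limma adjusted p-values for the 9 ran from 0.832 to 0.949. With Ins1 and Ins2 summed as the denominator, the differences were -0.25 for Cpe, -0.33 for Scg3 and -0.46 for Ero1b.

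The titles carry animal numbers, and 3 runs of consecutive numbers hold both genotypes. The labels do not call these runs a batch. In the runs with 2 knockout and 2 WT mice, the log2 ratio to Ins2 was lower in the knockout for all 9 genes. Scg3 differed by -0.87 and -0.64, Cpe by -0.80 and -0.52, Ero1b by -1.20 and -0.70, and Pcsk1 by -1.77 and -0.91. In the run of 3 knockout mice and 1 WT mouse the differences were smaller or of the other sign, at -0.13 for Scg3, -0.06 for Cpe, -0.11 for Ero1b and 0.16 for Pcsk1. Ins2 itself differed by 0.87 and 0.47 in the first runs and by -0.19 in the last. When these 12 libraries were fitted with a term for the run, limma called 274 of 10508 ratios, all lower, and Pcsk1 was the only one of the 9 genes among them (-0.93, limma adjusted p = 0.04995, at the edge of the threshold). Without that term, limma on the same libraries called 0 ratios (Pcsk1 adjusted p = 0.299). Exact permutation within runs, over 144 regroupings, gave an unadjusted p of 0.0556 for Pcsk1. For the 9 ratios it ran from 0.0208 (Cpe and Scg3) to 0.660 (Scg2).

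The spread between knockout mice was wide for a subset of the genes. The SD of the level in the knockout was 3.003 times that in WT for Iapp, 2.55 times for Scg5 and 2.01 times for Pcsk1, and 0.877 times for Cpe. Over all genes the median of this ratio was 1.14, and over the 1718 genes of mean log2 CPM of at least 6 it was 1.40. It was over 2 in 33.3% of the 9 genes, in 10.4% of all genes and in 19.7% of those 1718. KO 2, KO 3 and WT 7 were the libraries with the most genes at no read. Without them, the ratio was 2.40 for Iapp, 2.11 for Scg5, 1.52 for Pcsk1 and 2.44 for Ero1b. For Ero1b the SD in WT was 0.28 with WT 7 and 0.18 without it. The median over all genes was not computed without these libraries. No test of these ratios was made.

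Across mice the genes fell into groups that moved together or apart. After the genotype means were removed, Scg5 and Iapp rose and fell as one (Pearson r = 0.92, Spearman rho = 0.91, permutation p = 1e-05 for both, n = 18), and r was 0.86 without the 2 farthest libraries. Only 0.0809% of other genes were correlated as highly with Scg5. Pcsk1 with Scg5 had r = 0.83 (rho = 0.80, permutation p = 3e-05 and 0.00014, 0.71 without the 2 farthest). Pcsk2 with Iapp had r = 0.82 (rho = 0.78, permutation p = 4e-05 and 0.00027, 0.74 without the 2 farthest). Other links of Pcsk1 were looser, as r was 0.53 with Pcsk2 (rho = 0.57, permutation p = 0.022 and 0.015, 0.44 without the 2 farthest). With Iapp it was 0.70 (rho = 0.73, permutation p = 0.0011 and 0.00091, 0.48 without the 2 farthest). The value 1e-05 is the smallest that the 100000 permutations can give.

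On the other side stood 2 granins. Scg2 moved against Pcsk1 (r = -0.84, rho = -0.88, permutation p = 4e-05 and 1e-05, -0.86 without the 2 farthest libraries), and did so within the knockout (r = -0.86) and within WT (r = -0.85). Their promoter stretches, shown above, carry the same 8-base palindrome, as does that of Chgb, and any link of it to these levels was not tested. Chga moved against Iapp (r = -0.72, rho = -0.73, permutation p = 0.00075 and 0.00095, -0.58 without the 2 farthest), with r = -0.81 within the knockout and -0.24 within WT. The share of other genes opposed as strongly was 0.917% with Chga and 4.66% with Iapp. For Pcsk1 and Scg2 it was 0.62% with Pcsk1 and 0.728% with Scg2. Cpe, Scg3 and Ero1b took part in none of the pairs with an absolute r of at least 0.6. Of the 36 pairs, 12 reached that size, 5 positive and 7 negative, against 6.05% of all pairs of genes of mean log2 CPM of at least 3. The p-values are unadjusted over the 36 pairs. Centring each library on its median gene left r at -0.83 for Pcsk1 with Scg2 and 0.92 for Scg5 with Iapp, and leaving out KO 2, KO 3 and WT 7 gave -0.70 and 0.88.

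**Figure D4:**
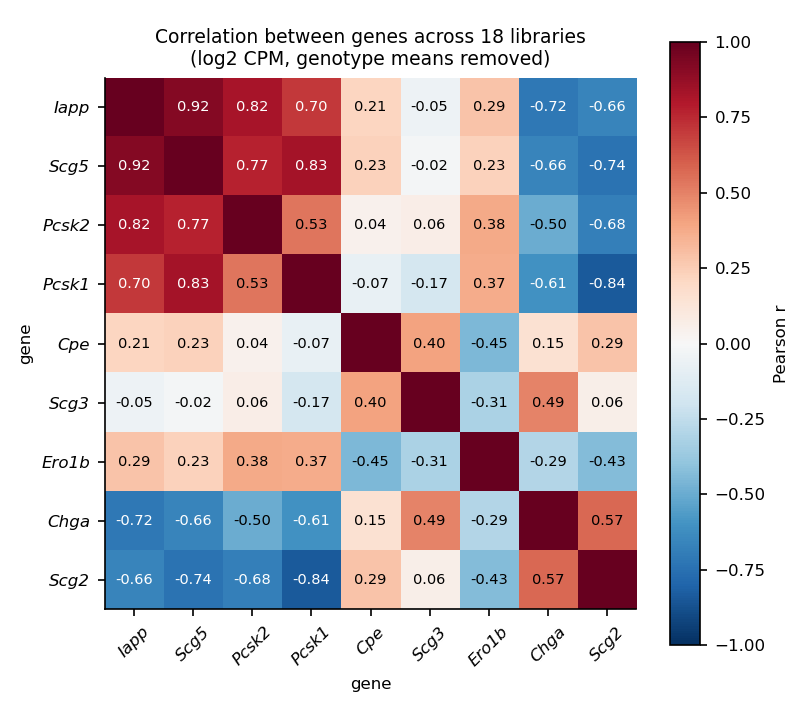
Pearson r between the levels of each pair of genes across 18 libraries, with the genotype means removed (colour scale from -1 to 1, value in each cell). Iapp, Scg5, Pcsk2 and Pcsk1 form a positive block, and Chga and Scg2 are negative with it.

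**Figure D5:**
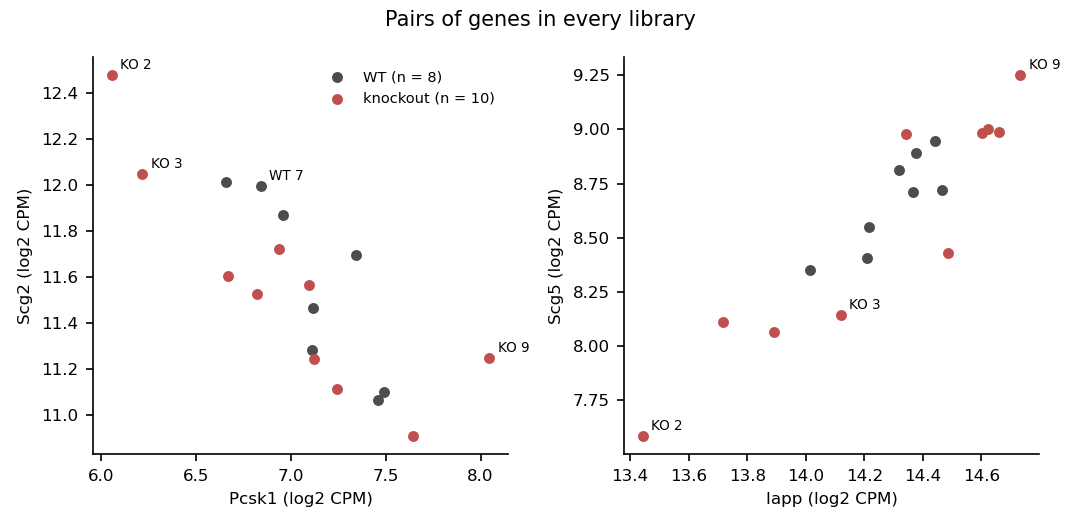
Level of Scg2 against Pcsk1 (left) and of Scg5 against Iapp (right), log2 CPM on all axes, 1 point per library. Scg2 is lower where Pcsk1 is higher, in both genotypes. KO 2 sits at the low end of Pcsk1, Iapp and Scg5, and KO 9 at the high end.

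Measures of the library moved with these groups. Over the 18 libraries, with genotype means removed, the number of genes with no read correlated with Scg2 (r = 0.74, rho = 0.61, permutation p = 0.00026 and 0.0082, 0.60 without the 2 farthest) and with Pcsk1 (r = -0.63, rho = -0.60, permutation p = 0.0055 and 0.0084, -0.56 without the 2 farthest). The acinar score correlated with Scg2 at r = -0.63 (rho = -0.64, permutation p = 0.0047 and 0.0052, -0.54 without the 2 farthest). The stromal score did so at r = 0.65 (rho = 0.63, permutation p = 0.0034 and 0.0061, 0.70 without the 2 farthest). For Chga, r was 0.44 with genes of no read (permutation p = 0.066), -0.25 with the acinar score and 0.05 with the stromal score. Genes with no read had r = -0.52 with Iapp, -0.50 with Scg5 and -0.38 with Pcsk2 (permutation p = 0.027, 0.034 and 0.13). These p-values are unadjusted over the genes and measures compared, and the share of all genes correlated as strongly was not computed. Many genes outside the list followed or opposed those of the list. Of 7418 genes of mean log2 CPM of at least 3, 428 followed Iapp at r of at least 0.7 and 400 opposed it at -0.7 or below. The counts were 454 and 443 for Scg5, 379 and 385 for Pcsk1, 393 and 410 for Scg2, and 29 and 16 for Cpe. Genes that followed Iapp at r of at least 0.7 had a median transcript length of 1340 bases in GENCODE, and genes that opposed it at -0.7 or below had 3107, beside 2208 over all genes. For Scg2 the order was the opposite, at 3061 and 1381 bases. The part of depth, exocrine carry-over or transcript length in the correlations was not tested.

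The genes most like each of these in their pattern across mice were mostly outside the pathway. Tonsl was nearest to Scg5 (r = 0.96) and Rabac1 to Iapp (r = 0.95). Pgrmc2 was among the 3 nearest to both Scg5 (r = 0.94) and Iapp (r = 0.93). The vacuolar proton pump subunit gene Atp6v1f was in place 3 for Scg5 (r = 0.93). Ndufa5 of respiratory complex I was nearest to Pcsk2 (r = 0.88), and Lsr was nearest to Pcsk1 (r = 0.92). Nearest to Cpe was Gclm, a subunit of the enzyme that starts glutathione synthesis (r = 0.87), followed by Amigo2 and the stress-induced cytokine gene Gdf15 (r = 0.80). Prrc2c led for Scg2 (r = 0.93), Matr3, which encodes a nuclear matrix RNA-binding protein, for Chga (r = 0.93), Eprs, a tRNA synthetase gene, for Scg3 (r = 0.85) and Tmf1 for Ero1b (r = 0.82). These are Pearson r over 18 libraries with genotype means removed, given without a test.

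Other genes of the pathway did not pass the test either. Of 22 further processing and granule genes measured, 10 were higher and 12 lower by level, limma called 0, and the median difference was -0.04. Ctsd, a lysosomal protease, was at 8.35 ± 0.35 (log2 CPM, SD, n = 10) in knockout islets against 8.68 ± 0.18 (SD, n = 8) in WT (difference -0.33, limma adjusted p = 0.925, exact permutation p = 0.0218). Slc30a8, the granule zinc transporter, differed by -0.24 and Ptprn, a granule membrane protein, by -0.16. Pcsk7, a convertase of the general secretory route, differed by 0.75 from 0 to 30 reads per library.

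Of 13 proinsulin folding genes measured, 5 were higher and 8 lower, limma called 0, and the median was -0.11. The disulfide isomerase gene Pdia4 was at 6.05 ± 0.41 (log2 CPM, SD, n = 10) and 6.42 ± 0.35 (SD, n = 8), a difference of -0.36 (limma adjusted p = 0.925, exact permutation p = 0.0645). Hspa5, the main chaperone of the endoplasmic reticulum, differed by -0.25, Pdia3 by -0.13 and Manf by 0.49. Among 6 other islet prohormones measured, 1 was higher and 5 were lower, and limma called 0. Beside Gcg, the differences were -0.36 for Sst, -0.29 for Pyy and 0.08 for Ppy.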

How the data were processed

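The deposited table gives log2 values for 18 libraries, made with a 3′ end kit (QuantSeq FWD) per the labels' protocols. Per the submitters' processing notes, GRCm38, edgeR, HTSeq 0.6.1 and STAR 2.5.2 were used, in roles not given. All columns share a floor of 0.562 CPM, and after its subtraction 100% of values in each library were whole multiples of 1 read within 0.05 reads. The deposited log2 values are thus log2(CPM + floor), a scale on which fold changes of rarely read genes come out too small. The CPM of 1 read did not follow the reads over listed genes alone. Depth is the sum of recovered reads over listed genes. PCR copies are not independent molecules, so reads understate error.

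Groups follow the genotype label. Levels, and log2 values minus Ins2 of the same library, were tested with limma 3.58.1 in R 4.3.3 (mean-variance trend, two-sided, Benjamini-Hochberg over all genes), and single genes by exact permutation with numpy 2.4.6. The filter of log2 above 0 in at least 8 libraries removed 0 genes. Limma's trend overstates the error of the most abundant genes, such as Ins2. The limma fits were tested on simulated data. Libraries of a group differed by more than sampling noise in all 73 pairs, so each counts once. That mice were separate animals comes from the numbers in the titles.

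Members and lists were chosen with earlier results of these data known. Named genes are the members, Ins1, Ins2, Nmrk1, Gcg, up to 4 genes of smallest p in each of 3 pathway lists, and the 3 genes most like each member. Marker scores are mean log2 values of a list. Entrez identifiers matched RefSeq for 9 of 9 genes listed. Promoters are from RefSeq and transcript lengths from GENCODE vM21.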

Additional observations from a re-analysis of the deposited data

How the results depend on the processing

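Limma called 0 levels in each setting fitted, and 0 ratios to Ins2 in each setting fitted except the run term over 12 libraries, with 274. Ratios were not fitted under quantile normalization or median centring; the latter cancels in a ratio. At an unadjusted p under 0.05, the main fits had 334 levels higher and 233 lower, and 20 ratios higher and 1433 lower. Ratios to Ins2 of the 9 genes kept their sign in the settings fitted for them and in the fits that left out 1 library. Scaled to recovered reads alone (limma voom), all 9 levels stayed below 0. Scg3 was then at -0.24 (unadjusted limma p = 0.0448, adjusted p = 0.842) and Ero1b at -0.37 (unadjusted limma p = 0.0676). Level differences changed sign as follows. Quantile normalization gave Cpe 0.092, Scg2 0.17 and Chga 0.025. The acinar covariate gave Scg2 0.0012, and the alpha-cell covariate gave Chga 0.042. Without KO 2, KO 3 and WT 7, Pcsk1 was 0.035, Pcsk2 0.020, Scg5 0.084 and Iapp 0.092, and the log2 ratios of Pcsk1 and Scg5 to Pcsk2 were 0.014 and 0.063. Over the 12 libraries in runs, Scg2 was 0.27 and Chga 0.10, and with the run as a term 0.32 and 0.10. Leaving out 1 library at a time gave -0.063 to 0.016 for Pcsk2, -0.12 to 0.056 for Scg2, -0.089 to 0.010 for Chga and -0.092 to 0.052 for Iapp. Without KO 2, the levels of Pcsk1 and Scg5 differed by -0.034 and -0.012 and the Iapp ratio to Ins2 by -0.21, without KO 3 the Pcsk1 ratio by -0.26, and without WT 7 the Cpe level by -0.027. The cause was not tested. Spread and correlations without 3 libraries, and correlations after median centring, were added after seeing the data.

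The labels give no shared replicate numbers, so no replicate block was fitted. With 10 and 8 mice, the 95% limma intervals of the 9 levels reached down to -0.64 (Ero1b) and up to 0.45 (Iapp), so differences of that size are not excluded for these genes.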
